A study of Mus musculus with 4 samples.

Results

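The linker histone genes Hist1h1t, H1fnt, Hils1, H1f0 and H1fx were followed through the cell types of the mouse testis. They were taken as the 5 rows of the gene table whose symbol was one of these names among the 28692 genes of the table, and each name matched 1 row. They held 533855 of the 190744950 unique molecular identifiers (UMI, each standing for 1 captured RNA molecule) in the data. The samples came from testicular cells of C57BL/6 mice at postnatal day 63. There were 2 samples of Phf7 tKO (genotype Stra8-Cre:Phf7 f/f) and 2 of Phf7 f/f. All 4 samples carry the floxed Phf7 allele, and the Cre in the Phf7 tKO samples is driven by Stra8, a gene of germ cells entering meiosis, so somatic cells are not its target. Separate animals behind the samples of each genotype are not mentioned in the labels. The matrix pools 4 libraries, told apart by a barcode suffix from 1 to 4. Which suffix belongs to which sample is not known from the labels, so Phf7 tKO and Phf7 f/f were not compared and no p-value is given.

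A linker histone binds the nucleosome where the DNA enters and leaves it, and helps pack nucleosomes into a denser fibre. Most body cells use replication-type linker histones, made in S phase, together with replacement forms such as H1f0 and H1fx that are made outside it. Male germ cells exchange these for forms of their own: Hist1h1t (H1t) in meiotic spermatocytes, then H1fnt and Hils1 in haploid spermatids, where nucleosomes give way to transition proteins and finally protamines. Replication-type histone mRNAs usually end just behind a short stem-loop and carry no poly(A) tail, whereas the assay used here captures poly(A).

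The ends of the transcripts are shown first because they bear on which RNAs such an assay can count. A histone stem-loop was searched in the GENCODE M21 transcripts of the 5 genes (GRCm38, the same assembly as mm10, which the submitters' processing notes name). All 5 genes have 1 annotated transcript with a single exon. Hist1h1t was the member with a match, at chr13:23696525-23696540 on the plus strand, and Hist1h1c, a replication-type linker histone of body cells, had one at chr13:23739512-23739527, also on the plus strand. The capitals mark the stem and the lower case the loop.
Hist1h1t stem-loop: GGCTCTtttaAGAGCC
Hist1h1c stem-loop: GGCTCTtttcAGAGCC
Behind its stem-loop the annotated Hist1h1t transcript runs on for another 185 bases and has the polyadenylation signal AATAAA 21 bases before its end. That of Hist1h1c also runs on, for 840 bases, with AATAAA 20 bases before its end. Hist1h1d and Hist1h1e had a stem-loop match 4884 and 1153 bases before their annotated ends. Hist1h1a and Hist1h1b had no match in their annotated transcripts of 741 and 743 bases, and sequence beyond those ends was not searched. Among the other members, Hils1, H1f0 and H1fx have AATAAA 18, 16 and 15 bases before the end and no stem-loop match. H1fnt had neither a stem-loop match nor AATAAA in its annotated transcript, and no other polyadenylation signal was searched. It was still counted, at 257358 UMI over all barcodes.

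The promoters of the 3 germ cell members are shown because 2 of them, H1fnt and Hils1, were high in the same cells and Hist1h1t was not. They are the 250 bases before the RefSeq start (GRCm38.p6), with matches in capitals to the H1 box AAACACA, an element of linker histone promoters, to CCAAT, to TATAAA and to the cAMP response element TGACGTCA, on either strand. None of the matches overlapped another.
Hist1h1t, chr13:23695561-23695810, plus strand: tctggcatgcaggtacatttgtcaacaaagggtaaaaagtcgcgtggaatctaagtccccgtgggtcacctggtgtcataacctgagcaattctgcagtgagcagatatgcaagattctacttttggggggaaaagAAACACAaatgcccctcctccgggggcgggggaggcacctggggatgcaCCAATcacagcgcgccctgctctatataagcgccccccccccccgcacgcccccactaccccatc
H1fnt, chr15:98257308-98257557, minus strand: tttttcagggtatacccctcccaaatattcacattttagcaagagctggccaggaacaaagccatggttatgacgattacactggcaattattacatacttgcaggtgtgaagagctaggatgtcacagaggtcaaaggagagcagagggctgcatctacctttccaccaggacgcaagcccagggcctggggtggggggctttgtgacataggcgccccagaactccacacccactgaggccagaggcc
Hils1, chr11:94967343-94967592, plus strand: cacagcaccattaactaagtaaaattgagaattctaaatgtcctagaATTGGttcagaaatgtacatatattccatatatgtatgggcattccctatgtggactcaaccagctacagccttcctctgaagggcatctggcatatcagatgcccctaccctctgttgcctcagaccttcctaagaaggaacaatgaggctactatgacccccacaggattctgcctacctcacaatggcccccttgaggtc
The Hist1h1t window held an H1 box that begins 114 bases before the start and a CCAAT that begins 65 bases before it. Those of Hist1h1b, Hist1h1c, Hist1h1d and Hist1h1e also held both, while those of Hist1h1a and H1foo held CCAAT but no H1 box. Whether any match bears on the levels was not tested. Of 32851 RefSeq promoter windows of the same length, 6.25% held the H1 box letters and 33.8% held CCAAT. The Hils1 window held CCAAT on the opposite strand (printed as ATTGG), and the H1fnt window matched none of the 4 motifs. TATAAA was in 12.4% of all windows and TGACGTCA in 1.55%. The share of G and C was 56.8% in the Hist1h1t window, 52.8% in that of H1fnt and 45.6% in that of Hils1, against 74.4% and 75.2% in those of H1f0 and H1fx and a median of 52.4% over all windows. The Hils1 window held 0 CG dinucleotides and those of H1f0 and H1fx held 24 and 30, with a median of 6 over all windows. The H1f0 window ends at chr15:79028211, before the GENCODE start of the gene at chr15:79028450. Bases just behind that window were not found in the annotated H1f0 transcript.

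The genes lie apart from each other. Hist1h1t (ENSMUSG00000036211) is at chr13:23695814-23696725 on the plus strand, H1fnt (ENSMUSG00000048077) at chr15:98255986-98257293 on the minus strand, Hils1 (ENSMUSG00000038994) at chr11:94967593-94968456 on the plus strand, H1f0 (ENSMUSG00000096210) at chr15:79028450-79030504 on the plus strand and H1fx (ENSMUSG00000044927) at chr6:87980421-87981637 on the minus strand. Hils1 overlaps Sgca, which codes for a muscle membrane protein, on the other strand, and H1fx overlaps the antisense gene Gm5577 and, on its own strand, the miRNA gene Gm47286. H1f0 overlaps the antisense gene Gm49544, which has no row in the matrix. The labels and file headers do not state whether counting used strand, and whether reads of such partners entered the counts was not tested. Sgca had 3252 UMI against 260854 of Hils1 over all barcodes, and Gm5577 had 300 against 13093 of H1fx.

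The libraries of suffixes 1 to 4 held between 7539 and 8562 barcodes and between 44447735 and 50353091 UMI. A total of 29968 cells passed the filters, with a median of 2633 UMI. Of 31772 barcode sequences, 497 were found in 2 or more libraries. Cells were grouped into clusters without using any linker histone gene, and the clusters were named from marker genes, with names that end in "like" since they rest on markers alone. In the germ line this gave 680 spermatogonia-like and 418 early spermatocyte-like cells, then 1990 late spermatocyte-like cells. Spermatids followed with 7104 cells of the round spermatid-like and 8830 of the elongating spermatid-like class. It also gave 1872 Sertoli-like, 330 Leydig-like, 129 macrophage-like, 41 endothelial-like and 415 interstitial mesenchymal-like cells. A further 27.2% of cells stayed unnamed. Between 7 and 10 markers were used per class, none was at 0 in its own class, and in each class at least 8 of its markers, or all 7 where it had 7, were highest in that class. The same markers had named the clusters, so this follows largely from the naming and is no separate check of it. Levels are given as CPM, the UMI of a gene scaled to the total UMI of the class, with an exact Poisson interval at 95% that covers counting error only. Each UMI tags 1 RNA end, so these values do not grow with the length of the gene.

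Hils1 and H1fnt were the abundant linker histone RNAs of spermatids, with Hils1 higher in the round and H1fnt in the elongating class. Hils1, a spermatid linker histone found in elongating nuclei, stood at 2338 CPM (2325 to 2351) in round spermatid-like and 1430 CPM (1421 to 1438) in elongating spermatid-like cells. H1fnt, needed in mice for spermatid nuclear condensation, stood at 1132 CPM (1123 to 1142) in round spermatid-like and 2373 CPM (2362 to 2384) in elongating spermatid-like cells. In round spermatid-like cells Hils1 made up 66.4% and H1fnt 32.2% of linker histone UMI, and in elongating spermatid-like cells Hils1 made up 37.0% and H1fnt 61.3%.

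The rise between spermatocytes and spermatids was seen in every library. Hils1 had 2363, 2327, 2198 and 2448 CPM in round spermatid-like cells of suffixes 1, 2, 3 and 4, against 115, 111, 123 and 121 CPM in late spermatocyte-like cells. The ranges of the 4 libraries did not overlap, and the log2 ratio was 4.31 (4.27 to 4.36). H1fnt had 1144, 1128, 1028 and 1218 CPM in round spermatid-like cells of the 4 suffixes, against 64.2, 60.5, 88.8 and 71.8 CPM in late spermatocyte-like cells. These ranges did not overlap either, and the log2 ratio was 3.98 (3.93 to 4.04). Calls of higher or lower needed a 2-fold difference over the pooled libraries and 1 direction in each of the 4, among genes with at least 50 UMI over both classes. Of the 5 members, 2 were called higher in round over late spermatocyte-like cells, Hils1 and H1fnt, and 2 lower, H1f0 and H1fx. Over all 14073 genes 33.8% were called higher and 35.9% lower, so calls in both directions were common. The median log2 ratio of the 5 members was -0.66, and that of all genes -0.34.

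**Figure D1:**
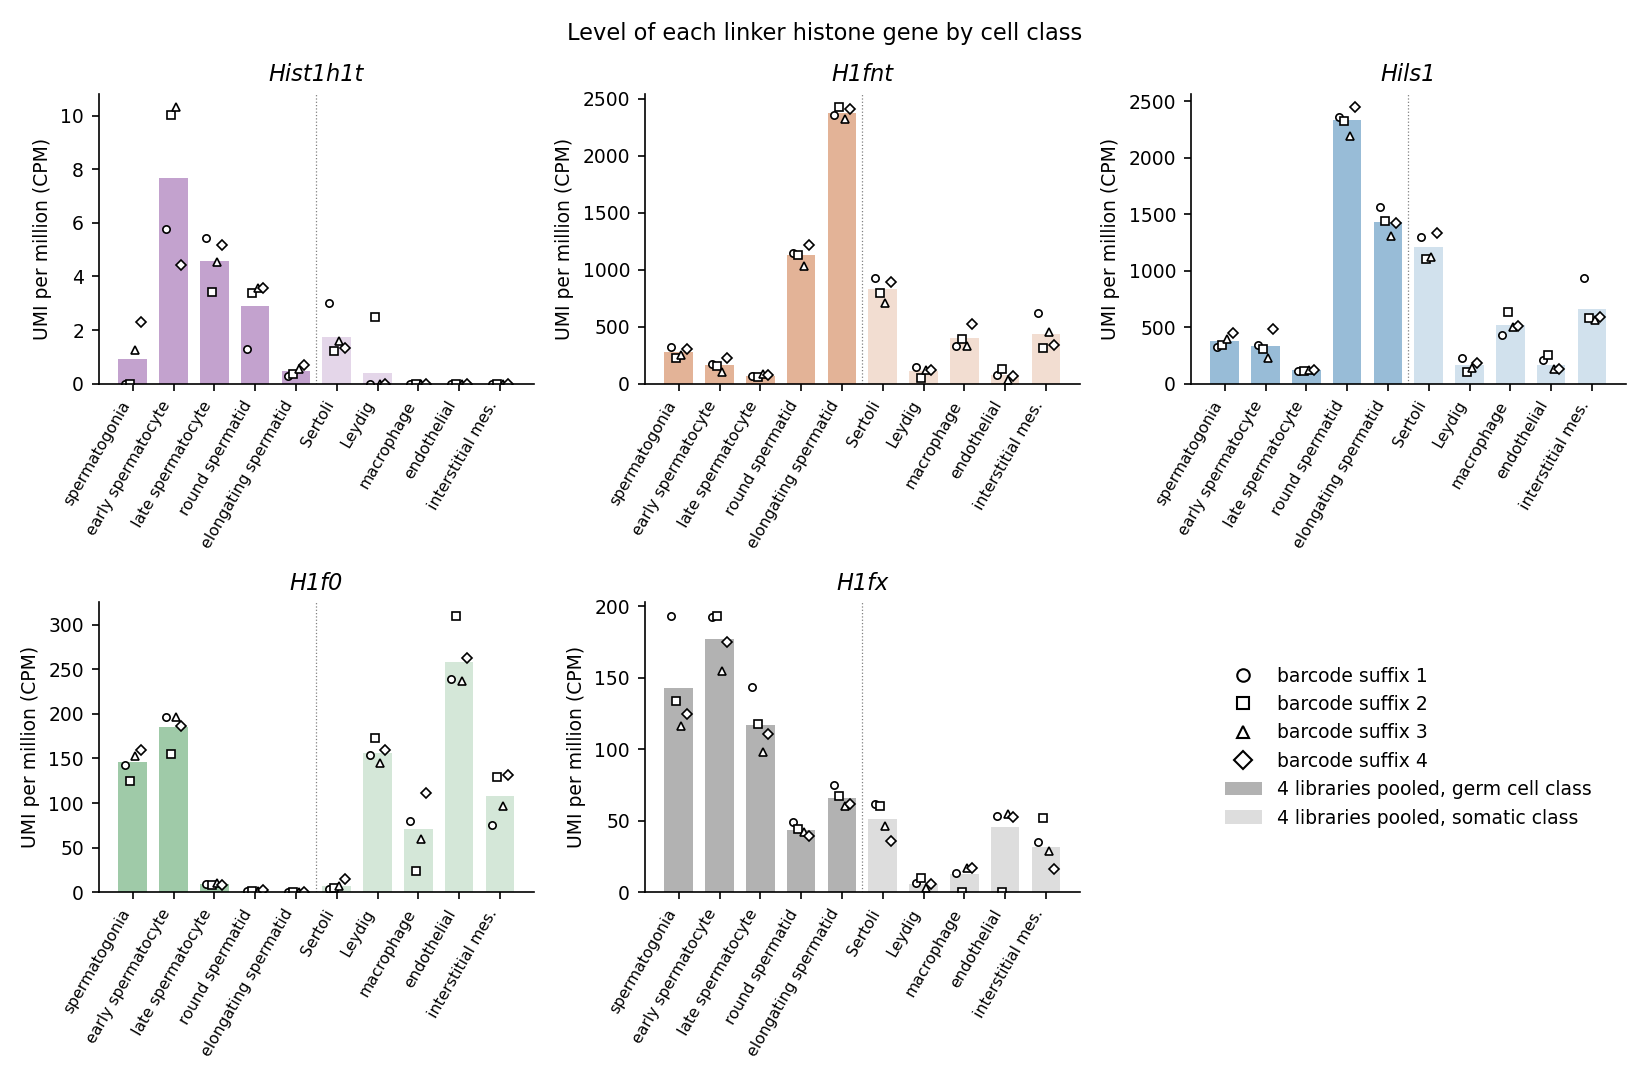
Level of each linker histone gene in CPM (vertical axis, linear, from 0) by cell class, with bars for the 4 pooled libraries and 4 symbols for the single barcode suffixes; somatic classes are paler and right of the dotted line. Hils1 was highest in round spermatid-like cells at 2338 CPM, H1fnt in elongating spermatid-like cells at 2373 CPM, and H1f0 fell to 9.11 CPM in late spermatocyte-like cells, against 186 CPM in early spermatocyte-like cells.

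Between the 2 spermatid classes the members parted. H1fnt had 2354, 2423, 2321 and 2405 CPM in elongating spermatid-like cells of the 4 suffixes, against 1144, 1128, 1028 and 1218 CPM in round spermatid-like cells. Its log2 ratio was 1.07 (1.05 to 1.08), and the ranges did not overlap. Without 1 round spermatid-like cluster of 417 cells, the deepest of its class with a median of 25838 UMI, the ratio was 0.69 and H1fnt was no longer called. Hils1 had 1562, 1443, 1310 and 1427 CPM in elongating spermatid-like cells, against 2363, 2327, 2198 and 2448 CPM in round spermatid-like cells, a log2 ratio of -0.71 (-0.72 to -0.70) that stayed short of a call. In this step 1 member was called higher, H1fnt, and 2 lower, Hist1h1t and H1f0, while 5.7% of 13525 genes were called higher and 69.5% lower. The median gene had a log2 ratio of -1.97, so Hils1 and H1fx, though not called, lay 1.26 and 2.55 above it. For Hils1 the highest library was 1.11 and 1.19 times the lowest in round and in elongating spermatid-like cells. For H1fnt it was 1.19 and 1.04 times. The median gene with enough UMI stood at 1.22 in both classes, but that median includes genes with far fewer UMI, whose counting error widens the spread. These values therefore do not show that Hils1 and H1fnt were steadier between libraries than other genes.

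A finer order of the spermatids was read from the share of their UMI taken by Prm2, the protamine that replaces histones last. In spermatid-like cells with at least 2000 UMI, the CPM of Hils1 rose with that share to 3816 CPM (3774 to 3857) where Prm2 held 2 to 4% of UMI. It then dropped steeply, to 1201 CPM (1187 to 1216) at 6 to 8% and 480 CPM (467 to 493) at 8 to 10%. H1fnt peaked later, at 3024 CPM (3001 to 3046) where Prm2 held 6 to 8%, and was still at 1590 CPM at 10 to 12%. The highest bin of H1fnt was the one at 6 to 8% in all 4 libraries, at 2961, 3110, 2953 and 3069 CPM in suffixes 1, 2, 3 and 4. The highest bin of Hils1 was the one at 2 to 4% in suffixes 2, 3 and 4, at 3672, 3996 and 3891 CPM, and the one at 4 to 6% in suffix 1, at 3732 CPM. In UMI per cell the course of Hils1 differed, with 41.7 under 0.2% Prm2, 9.17 at 0.2 to 0.5%, 36.9 at 2 to 4% and 40.4 at 4 to 6%. The median depth was 21596 UMI in the first of these bins and 3506 UMI in the second. H1fnt fell from 12.05 to 4.09 UMI per cell between those 2 bins and was highest at 6 to 8%, at 33.97. The transition protein genes Tnp1 and Tnp2, whose products replace histones before the protamines do, were also highest at 6 to 8% in every library, with 24225 and 42847 CPM in the pool.

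The ratio of Hils1 to H1fnt UMI was lower at 8 to 10% Prm2 than in the bin with the least Prm2, though not by even steps. It was 3.46 in the 854 cells with under 0.2% Prm2, 1.57 at 1 to 2%, 1.70 at 2 to 4%, 1.21 at 4 to 6%, 0.397 at 6 to 8% and 0.209 at 8 to 10%. In the 4 libraries it ran between 3.13 and 3.79 in the first of these bins and between 0.186 and 0.245 in the last. Beyond that it was 0.218 at 10 to 12% and 0.435 at 12 to 15%. In the 466 cells with 15% or more Prm2 it was back at 0.950, with Hils1 at 2.00 and H1fnt at 2.10 UMI per cell, near the 1.84 and 1.27 UMI per Sertoli-like cell. Since the 2 genes may be captured with unequal efficiency, the ratio compares cells with each other and does not give the proportion of the 2 RNAs. The bins and the order were chosen after the data had been seen, and Prm2 itself adds to the UMI total. Prm2 was also counted in cells that should not make it, at 26.7 UMI per spermatogonia-like cell. Median depth fell from 21596 UMI under 0.2% Prm2 to 3506 UMI at 0.2 to 0.5% and 2968 UMI at 0.5 to 1%. Below 1% the bins may thus sort cells by depth as well as by stage, which was not tested. With Tnp1, Tnp2, Prm1 and Prm2 left out of the total, Hils1 stood equally high at 2 to 4% and at 4 to 6%, at 4119 CPM in both, and H1fnt was highest at 6 to 8%, at 3702 CPM.

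**Figure D2:**
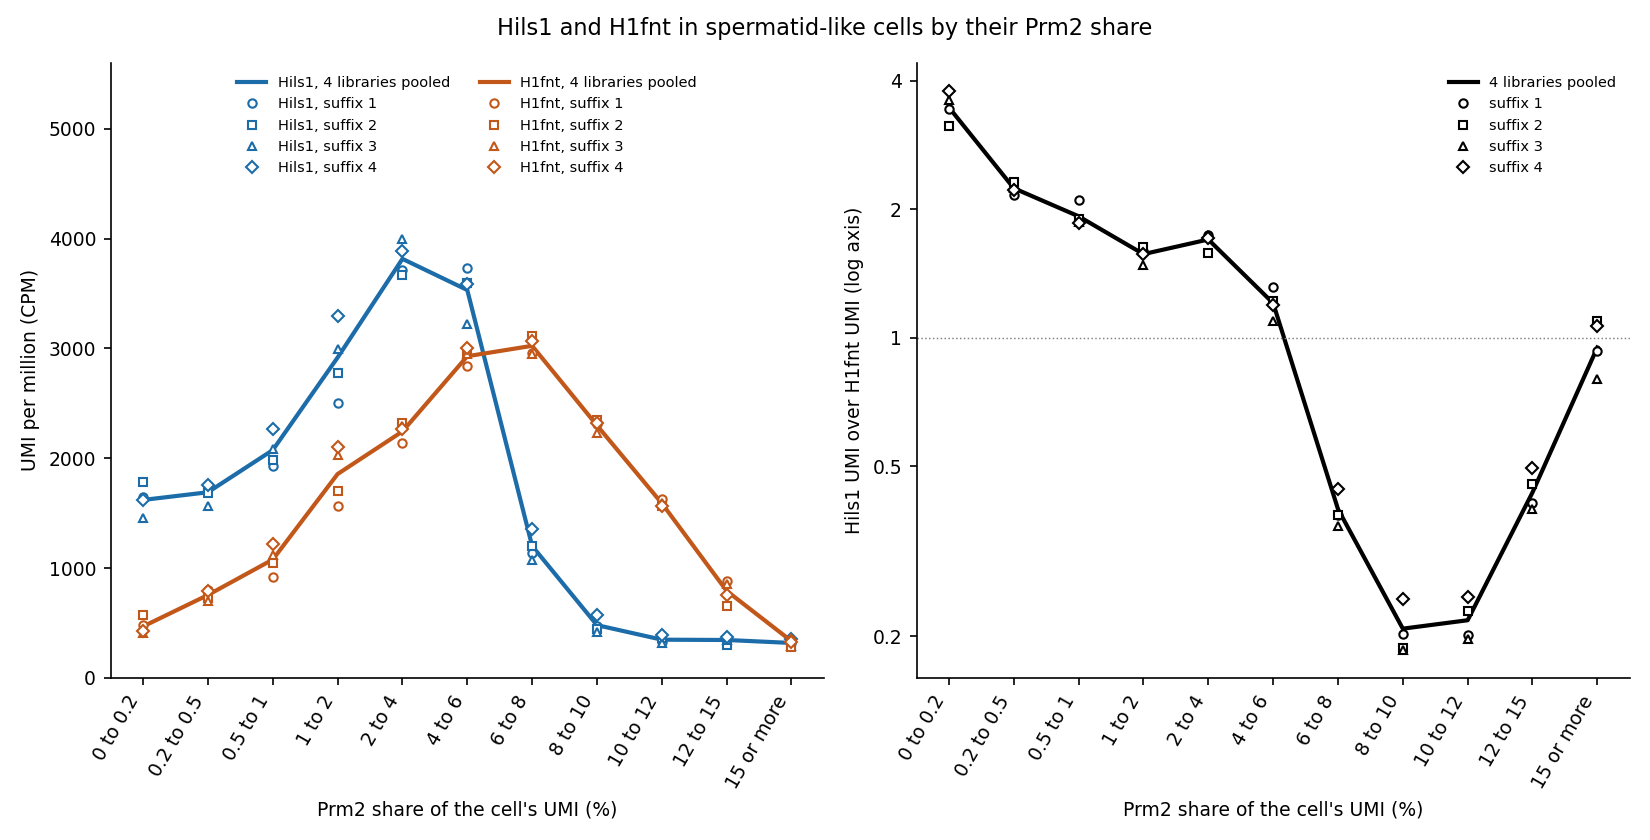
Spermatid-like cells with at least 2000 UMI, binned by the Prm2 share of their UMI (horizontal axis, %). Left, CPM of Hils1 and H1fnt; right, the ratio of their UMI on a log axis; lines are the 4 pooled libraries and symbols the single suffixes. Hils1 reached 3816 CPM at 2 to 4% Prm2 and H1fnt 3024 CPM at 6 to 8%, and the ratio fell to 0.209 at 8 to 10%, against 3.46 under 0.2%.

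Single spermatid-like cells held both RNAs more often than 1 alone, and the earlier germ cell classes did not. With each cell thinned to 2000 UMI, both were found in 69.8% of 4798 round spermatid-like cells, Hils1 alone in 23.8% and H1fnt alone in 2.75%. In 7826 elongating spermatid-like cells both were found in 65.0%, Hils1 alone in 7.28% and H1fnt alone in 22.4%. In 1621 late spermatocyte-like cells, whose UMI per cell of both genes lay near those of somatic cells, both were found in 10.98%, Hils1 alone in 23.1% and H1fnt alone in 10.7%. Sertoli-like cells had a median of 1066 UMI, so only the deeper cells of that class could be thinned alike. Of these, 72.9% had H1fnt and 74.2% had Hils1. Round spermatid-like cells had them in 72.5% and 93.6%, and elongating spermatid-like cells in 87.4% and 72.3%. Both together were not counted in Sertoli-like cells, so these shares do not show that 1 cell made both RNAs. Spermatid-like cells with 1 of the RNAs more often had Hils1 in the round class and H1fnt in the elongating class, and no order was read from this.

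The clusters within each spermatid class spanned most of this course. The 6 round spermatid-like clusters ran from 1070 to 3764 CPM for Hils1 and from 228 to 2543 CPM for H1fnt. The 5 elongating spermatid-like clusters ran from 374 to 3457 CPM for Hils1 and from 412.5 to 3058 CPM for H1fnt. The ratio of Hils1 to H1fnt was 5.88 in the deep round spermatid-like cluster with the least Prm2, and 5.53, 5.20, 7.34 and 5.90 in suffixes 1 to 4. It was 0.196 in an elongating spermatid-like cluster with 101772 CPM of Prm2, and 0.186, 0.180, 0.189 and 0.221 in suffixes 1 to 4.

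Both RNAs were also counted in cells that should not make them. Sertoli-like cells, which nurse germ cells in the tubule, had 831 CPM of H1fnt (798 to 866) and 1212 CPM of Hils1 (1172 to 1253). Per cell this was 1.27 UMI of H1fnt and 1.84 of Hils1, against a range over the 5 somatic classes of 0.512 to 1.27 and 1.17 to 1.84. Late spermatocyte-like cells held 1.22 and 2.01 UMI per cell, early spermatocyte-like cells 0.751 and 1.55, and spermatogonia-like cells 1.31 and 1.79. Over the 4 libraries these 3 germ cell classes overlapped Sertoli-like cells for both genes, except that H1fnt in early spermatocyte-like cells lay below them. These levels could therefore not be told from free RNA, which enters all droplets. Round spermatid-like cells held 8.46 UMI of H1fnt and 17.5 of Hils1 per cell, and elongating spermatid-like cells 19.5 and 11.8. For these whole classes no library overlapped a somatic class, but single clusters came close. An elongating spermatid-like cluster of 1196 cells held 0.931 and 1.69, within the somatic ranges. Another, of 1437 cells, held 2.08 and 1.94, near them. A round spermatid-like cluster of 1633 cells held 1.10 UMI of H1fnt, also within the somatic range. Shares of cells with a UMI may carry free RNA as well. Thinned to 1000 UMI, 81.3% of 6754 round spermatid-like cells (350 shallower cells left out, median of the class 2908 UMI) had Hils1, against 66.8% of 1080 Sertoli-like cells (792 left out, median 1066 UMI). Unthinned the shares were 95.7% and 76.9%. In elongating spermatid-like cells the thinned share of Hils1 was 55.5%, below that of Sertoli-like cells though the level in CPM was above it, so no order was read from shares.

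**Figure D3:**
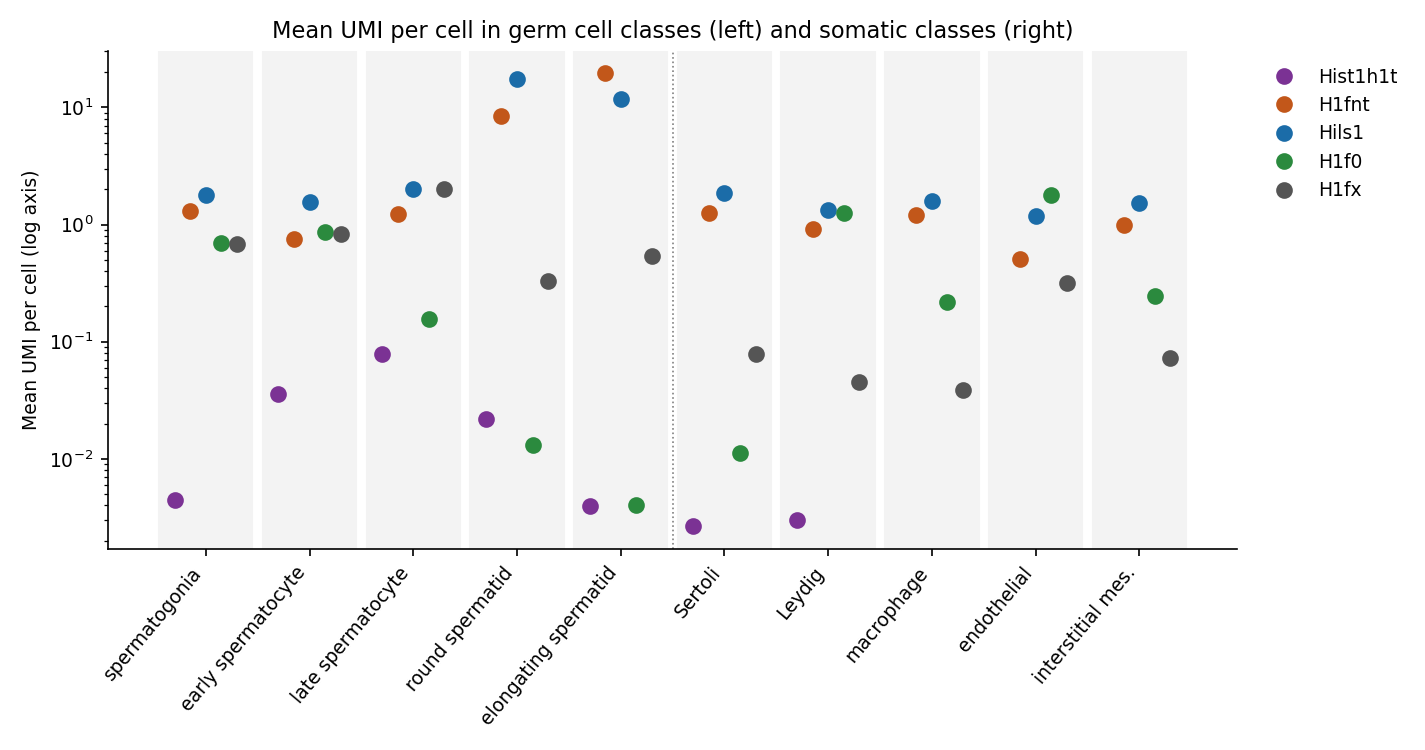
Mean UMI per cell (vertical log axis) of the 5 genes in germ cell classes (left of the dotted line) and somatic classes (right); a class with 0 UMI has no point. H1fnt and Hils1 lie between 0.512 and 2.01 in all classes other than the 2 spermatid classes, where they lie between 8.46 and 19.5.

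The calls of H1fnt and Hils1 among the earlier classes have to be read against these values. In spermatogonia-like over Sertoli-like cells H1fnt and Hils1 were called lower, with log2 ratios of -1.58 and -1.68, and H1f0 and H1fx higher. With 4 of the 5 members holding enough UMI, this made 2 called higher and 2 lower, against 37.9% and 27% of 9799 genes. The UMI per cell of H1fnt and Hils1 overlapped between these 2 classes, whose median depths were 4383 and 1066 UMI. In late over early spermatocyte-like cells, 3 of 5 members were called lower, H1fnt, Hils1 and H1f0, and 0 higher, against 31.8% and 23.3% of 11436 genes. The log2 ratios of H1fnt and Hils1 were -1.17 and -1.50, and with the mean of CPM per cell they were 0.29 and 0.10. Without suffix 4 H1fnt was just short of a call.

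Hist1h1t, the linker histone of pachytene spermatocytes, was the rarest of the 5, with 402 UMI over all barcodes. By CPM it was highest in early spermatocyte-like cells, at 7.69 CPM (4.31 to 12.7, from 15 UMI), followed by late spermatocyte-like cells at 4.58 CPM (3.89 to 5.36, from 156 UMI) and round spermatid-like cells at 2.90 CPM (2.46 to 3.40, from 154 UMI). In single libraries it had 5.78, 10.03, 10.3 and 4.43 CPM in early spermatocyte-like cells, 5.42, 3.44, 4.54 and 5.18 CPM in late spermatocyte-like cells and 1.31, 3.38, 3.56 and 3.56 CPM in round spermatid-like cells. The ranges of neighbours in this order overlapped. UMI per cell gave the other order, 0.0784 in late against 0.0359 in early spermatocyte-like cells, with no overlap between libraries. With cells chosen by a marker gate the late over early log2 ratio was 0.30, against -0.75, so no order of these 2 classes was read. Spermatogonia-like cells had 3 UMI, or 0.933 CPM (0.193 to 2.73), and elongating spermatid-like cells 0.482 CPM (0.336 to 0.671).

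Within the late spermatocyte-like class Hist1h1t was uneven. One cluster of 979 cells held 143 of its UMI, at 6.61 CPM (5.57 to 7.79), and the other, of 1011 cells, held 13, at 1.05 CPM (0.558 to 1.79). Among round spermatid-like clusters it was highest at 7.38 CPM (5.43 to 9.82) in a cluster of 1633 cells, and 0 UMI were counted in another of 1003 cells, where the exact Poisson upper bound is 1.91 CPM. Per cell, late spermatocyte-like cells held 0.0784 UMI and somatic classes from 0 to 0.00303, so free RNA at the somatic level was small beside it. In elongating over round spermatid-like cells it was called lower, at a log2 ratio of -2.59 (-3.16 to -2.05), or -0.62 relative to the median gene. These counts cover polyadenylated RNA, and how much of the RNA of Hist1h1t carries a poly(A) tail in these cells was not measured here.

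H1f0, a replacement linker histone typical of cells that have stopped dividing, was present early in the germ line and low from the late spermatocyte-like class on. It had 197, 156, 196 and 186 CPM in early spermatocyte-like cells of suffixes 1, 2, 3 and 4, and 143, 125, 153 and 159 CPM in spermatogonia-like cells, ranges that overlapped (log2 ratio 0.35, 0.15 to 0.55). In late spermatocyte-like cells it had 9.25, 8.48, 10.3 and 8.39 CPM, far below every early spermatocyte-like value. The log2 ratio of late over early spermatocyte-like cells was -4.35 (-4.57 to -4.13). It was lower again in round over late spermatocyte-like cells, by -2.36 (-2.71 to -2.03), and in elongating over round spermatid-like cells, by -1.84 (-2.43 to -1.27), which is 0.14 above the median gene. Its level in elongating spermatid-like cells was 0.496 CPM. In UMI per cell H1f0 stood at 0.866 in early spermatocyte-like and 0.690 in spermatogonia-like cells, against 0.0112 in Sertoli-like cells.

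Among somatic cells H1f0 differed widely between classes. By CPM it was highest in endothelial-like cells, at 258 CPM (202 to 324) from 41 cells, followed by Leydig-like cells, which make testosterone, at 156 CPM (142 to 172), interstitial mesenchymal-like cells at 108 CPM (87.8 to 131) and macrophage-like cells at 71.3 CPM (47.4 to 103). Sertoli-like cells had 7.37 CPM (4.56 to 11.3). The endothelial-like value depended on how cells were chosen: it was 12.2 CPM with a marker gate per cell, where Leydig-like cells had 135 CPM. In UMI per cell the endothelial-like and Leydig-like libraries overlapped. All 4 Leydig-like libraries, between 145 and 174 CPM, lay above all 4 Sertoli-like libraries, between 3.02 and 14.7 CPM. The spermatogonia-like over Sertoli-like log2 ratio of H1f0 was 4.31 (3.68 to 5.01). The early spermatocyte-like and Leydig-like ranges overlapped, as did those of Leydig-like and spermatogonia-like cells.

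H1fx, the other replacement form, was present in every germ cell class. It stood at 143 CPM (130 to 157) in spermatogonia-like, 177 CPM (159 to 197) in early spermatocyte-like, 117 CPM (113 to 120) in late spermatocyte-like, 43.8 CPM (42.03 to 45.6) in round spermatid-like and 65.6 CPM (63.7 to 67.5) in elongating spermatid-like cells. The libraries of the first 3 classes overlapped with their neighbours. It had 48.9, 44.4, 41.9 and 39.4 CPM in round spermatid-like cells of the 4 suffixes, against 143.5, 118, 98.3 and 110.4 CPM in late spermatocyte-like cells, with a log2 ratio of -1.41 (-1.49 to -1.34) and no overlap. Within the late spermatocyte-like class the cluster rich in Hist1h1t had 145 CPM of H1fx and the other 66.8 CPM. In late spermatocyte-like cells it made up 36.5% (35.6 to 37.4%) of linker histone UMI, beside 36.8% of Hils1 and 22.4% of H1fnt, which could not be told from free RNA there.

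Along the Prm2 order H1fx followed no single direction. In the pool it had 51.3 CPM where Prm2 held under 0.2% of UMI, 39.4 CPM at 0.5 to 1% and 95.5 CPM at 15% or more. In UMI per cell it was highest in the first of these bins, at 1.32, in cells with a median of 21596 UMI, and stood at 0.191 and 0.601 in the other two. The bin with the highest CPM differed between libraries, at 8 to 10% in suffix 2, 12 to 15% in suffix 4 and 15% or more in suffixes 1 and 3. Elongating spermatid-like cells had 0.539 UMI of H1fx per cell and round spermatid-like cells 0.327, while somatic classes ran from 0.0388 in macrophage-like to 0.317 in endothelial-like cells. Leydig-like cells had 5.70 CPM of H1fx (3.19 to 9.40), the lowest class, beside their 156 CPM of H1f0. In spermatogonia-like over Sertoli-like cells H1fx was called higher, at a log2 ratio of 1.48 (1.21 to 1.76).

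**Figure D4:**
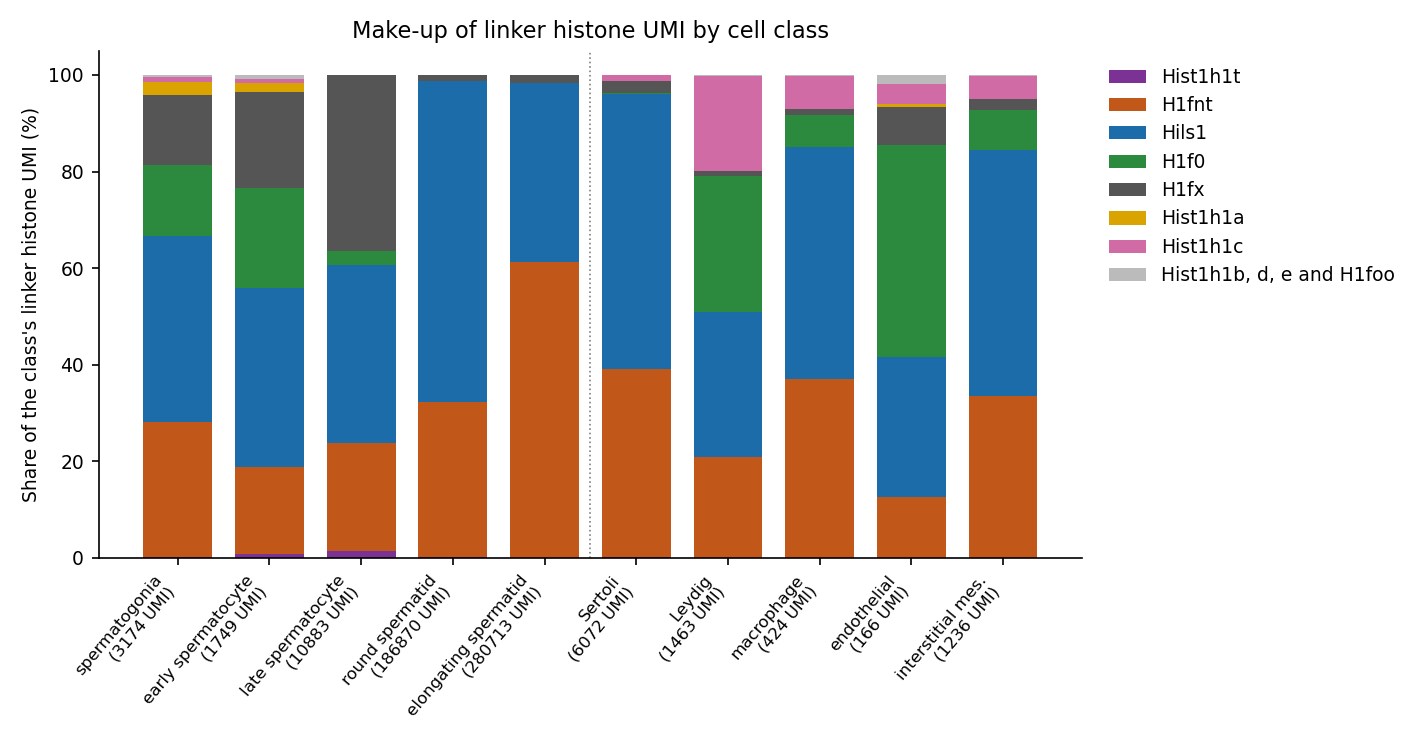
Share of the linker histone UMI of each class (vertical axis, %) held by the 5 genes and by other linker histone genes; the number of UMI is under each bar. Hils1 fills 66.4% and H1fnt 32.2% of the bar in round spermatid-like cells, and 37.0% and 61.3% in elongating spermatid-like cells. In the other germ cell classes and in the somatic classes their part could not be told from free RNA.

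In early spermatocyte-like over spermatogonia-like cells none of the members was called: 0 higher and 0 lower of the 4 with enough UMI, against 11.8% and 18.3% of 8994 genes. Hist1h1t had 15 and 3 UMI there and was not counted. The log2 ratios of the other 4 lay between -0.79 for H1fnt and 0.35 for H1f0, with a median of 0.06 beside -0.12 over all genes.

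**Figure D5:**
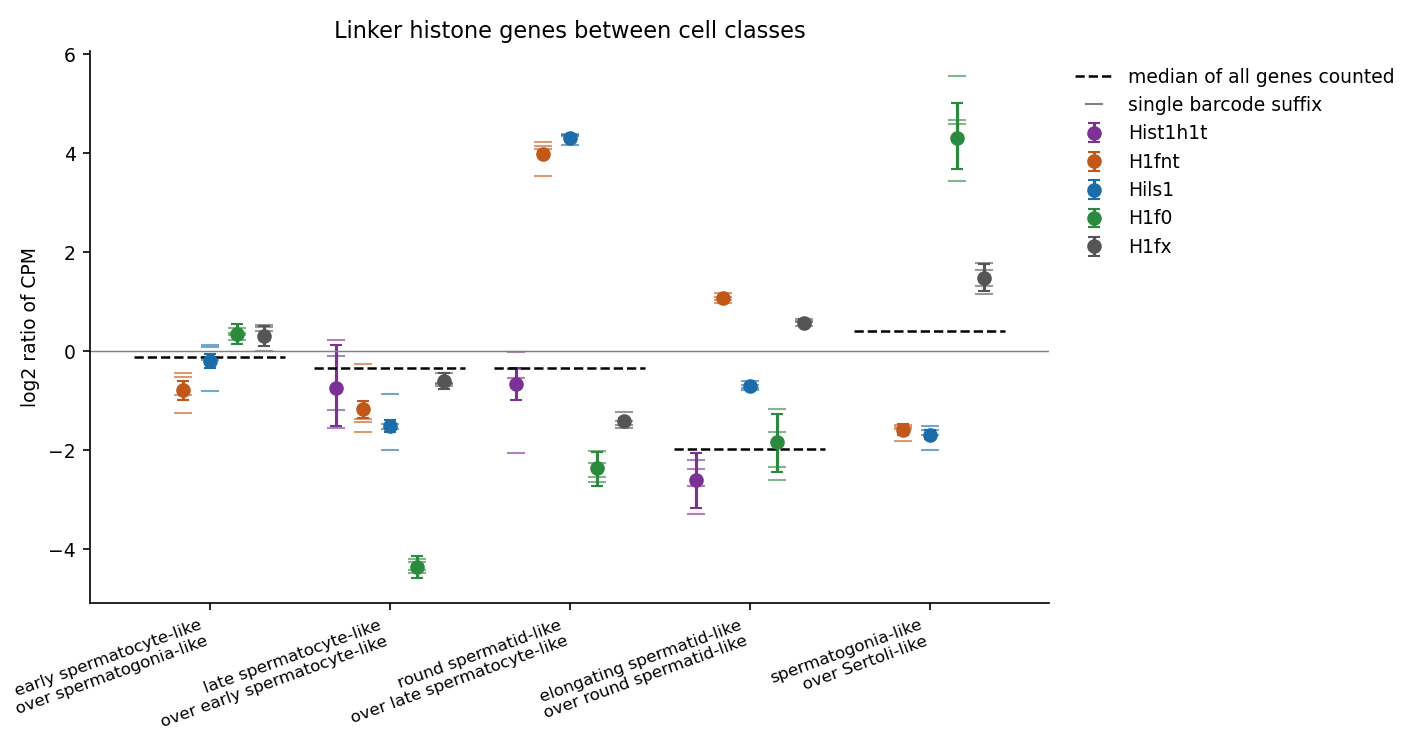
log2 ratio of CPM of the 5 genes in 5 class comparisons, named under the axis with the class on top of the ratio first. Points are the pooled libraries with 95% intervals for counting error, short lines single suffixes, and dashed lines the median of all genes counted; H1fnt and Hils1 stand at 3.98 and 4.31 in round over late spermatocyte-like cells and H1f0 at -4.35 in late over early spermatocyte-like cells.

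The remaining linker histone genes gave few counts. Hist1h1a had 87 UMI in spermatogonia-like cells, or 27.1 CPM (21.7 to 33.4), and 34 UMI in early spermatocyte-like cells, or 17.4 CPM (12.1 to 24.4), and 3 UMI in late spermatocyte-like cells. Hist1h1c was highest in Leydig-like cells, at 109 CPM (96.5 to 122), and had 10.3 CPM in spermatogonia-like and 0.207 CPM in round spermatid-like cells. Hist1h1e, Hist1h1b and Hist1h1d had 51, 3 and 3 UMI over all barcodes, and the oocyte linker histone H1foo had 6. In the 4 comparisons of neighbouring germ cell classes, 1 of these 6 genes had enough UMI in 1 comparison, Hist1h1a in early spermatocyte-like over spermatogonia-like cells, and it was not called. Members of this family resemble each other, and the labels do not state how the authors treated reads that match several genes.

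Most genes of spermatid nuclear proteins with enough UMI were higher in the spermatid classes. Of 9 on the list, which holds transition proteins, protamines and histone variants, 7 had enough UMI in round over late spermatocyte-like cells, where 6 were called higher and 0 lower, against 33.8% and 35.9% of all genes. Their median was 3.14 on the log2 scale, beside -0.34 over all genes. Tnp1, Tnp2, Prm1 and Prm2 were also markers that named the elongating class, so their counts are a description. In elongating over round spermatid-like cells 6 were higher and 1 lower, against 5.7% and 69.5% of all genes. Hmgb4, an HMG box protein of spermatids, was at 4.03 and 1.16 in these steps, H2afb1, a short histone variant of spermatids, at 3.39 and 2.09, and Prm2 at 2.65 and 2.88. H3f3b, which codes for the replacement histone H3.3, was the gene called lower, at -3.53 in elongating over round spermatid-like cells. In late over early spermatocyte-like cells 0 of 8 were higher and 5 lower, against 23.3% and 31.8%. In early spermatocyte-like over spermatogonia-like cells 1 of 8 was higher, Hist1h2aa, and 1 lower, Prm2, against 11.8% and 18.3%. Tnp1, Tnp2, Prm1 and Prm2 also had between 346 and 20564 CPM in single somatic classes, so ratios of these 4 before the spermatid stage may carry free RNA as well.

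Genes of linker histone chaperones and of proteins that compete with linker histones for nucleosomes were mostly lower in the late spermatocyte-like class relative to the early one. Of 10, 8 were called lower and 0 higher in late over early spermatocyte-like cells, against 31.8% and 23.3% of all genes. The list's median there was -1.83 on the log2 scale, beside -0.33 over all genes. Ptma, which codes for prothymosin alpha, a linker histone chaperone, was at -4.25, near the -4.35 of H1f0, and Hmgb1 and Hmgb2, whose HMG box proteins bind linker DNA, at -3.25 and -2.42. In round over late spermatocyte-like cells, where 33.8% of all genes were higher and 35.9% lower, 1 was higher, the nucleosome-binding protein gene Hmgn1 at 2.05, and 5 lower, among them Hmgb2 at -4.92 and the chaperone gene Nap1l4 at -3.04. In elongating over round spermatid-like cells 0 were higher and 8 lower, a share near the 69.5% of all genes called lower there, and the median of -1.53 was above the -1.97 of all genes. In early spermatocyte-like over spermatogonia-like cells 0 were higher and 3 lower, Ptma, Hmgn1 and Hmgn2, against 11.8% and 18.3%. Spermatogonia-like over Sertoli-like cells had 8 higher and 0 lower, against 37.9% and 27%.

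The genes most like each member were named by Pearson's r of log2(CPM + 1) over 25 clusters of at least 50 cells, among 8950 genes. Clusters share libraries and differ in depth, so these values describe likeness only. For Hils1 they were Cypt2, 1700023F06Rik and Cypt12, at 0.994, 0.988 and 0.987. For H1fnt they were Rnf133, Txndc2 and Asb17, at 0.990, 0.989 and 0.986. For H1f0 they were Ctnnbip1, P4hb and Hnrnpul2, at 0.971, 0.966 and 0.963. Likeness was lower for H1fx, with Eif5, 2310061I04Rik and Tmem59l at 0.850, 0.830 and 0.793, and for Hist1h1t, with Dmrtc2, Gml and Rpap2 at 0.841, 0.814 and 0.814. Among the members, Hils1 and H1fnt were most alike, at 0.805, and H1fnt and H1f0 least, at -0.524.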

How the data were processed

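Testicular cells of 4 samples were assayed with the Chromium 3' v3 kit, and the deposited matrix holds UMI counts per gene and barcode, as deposited by the authors. The matrix header names software version 3.0.2, and the submitters' processing notes list Cell Ranger 3.0.2, bcl2fastq 2.19.1.403 and the build mm10, with no order given. The labels name reads from the NextSeq 550 and NovaSeq 6000 instruments. The annotation release and any depth equalisation are not given here. Counting intervals are exact at 95% and cover counting error only. Barcodes entered with 500 or more genes and up to 10% of UMI from mitochondrial genes. Scrublet marked 0 of 29968 cells, so it did not work here and doublets remain. Clusters (scanpy 1.11.5, leidenalg 0.10.2, Leiden resolution 1, 30 components, 15 neighbours, 2000 scaled variable genes without the listed genes) were named from fixed markers. Scaling, the Leiden iterations, the naming rule and the Prm2 order were set after the data had been seen. The members and lists were chosen with earlier results of these data known. Named genes are all members, the listed genes and the 3 genes most like each member. The planned edgeR test of genotype was not run, since barcodes could not be tied to samples.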

Additional observations from a re-analysis of the deposited data

How the results depend on the processing

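No paired analysis was possible because the barcode suffixes carry no sample label, so replicate numbers could not be placed on them. The number of members called stayed within 1.5 times the value given in 89 of 96 recomputations. In early spermatocyte-like over spermatogonia-like cells it was 4 with the listed genes allowed among the variable genes, 1 with a marker gate per cell and 1 at a 1.5-fold threshold, against 0. In late over early spermatocyte-like cells it was 1 at a 3-fold threshold, against 3. In round over late spermatocyte-like cells it was 2 with variable genes not scaled, an alternative added after seeing the data, against 4. In spermatogonia-like over Sertoli-like cells it was 1 with the marker gate and 2 at 3-fold, against 4. Among directions with a call on either side, reversals were seen for H1f0 in early spermatocyte-like over spermatogonia-like cells, at -2.02 with the listed genes allowed. They were also seen for H1fnt and Hils1 in late over early spermatocyte-like cells, at 0.29 and 0.10 with the mean of CPM per cell, and in spermatogonia-like over Sertoli-like cells, at 0.43 and 0.07 with the marker gate. In another 13 of 444 recomputed log2 ratios the sign changed with no call on either side. In early spermatocyte-like over spermatogonia-like cells H1fnt reached 0.68, against -0.79, and Hils1 0.70, against -0.19, both at resolution 2. Hist1h1t reached 0.30 in late over early spermatocyte-like cells, against -0.75, with the marker gate, and 0.59 in round over late spermatocyte-like cells, against -0.66, with variable genes not scaled. The cause was not tested. H1fnt in elongating over round spermatid-like cells ran from 0.45 to 1.32, against 1.07. In round over late spermatocyte-like cells Hils1 ran from 2.12, at resolution 0.5 where the late class had 703.9 CPM against 117.7 CPM, to 4.53, and H1fnt from 2.51 to 4.36. H1f0 in late over early spermatocyte-like cells ran from -4.47 to -3.05. Leaving out the deepest round or the shallowest elongating cluster, and the shared barcodes, were also chosen after seeing the data. No early spermatocyte-like or Sertoli-like cluster was named with at least 1000 genes per cell, at resolution 0.5 or with variable genes not scaled, so comparisons with them had no value there. Hist1h1t rests on 402 UMI, which limits its precision.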
